A study of Arabidopsis thaliana with 20 samples.

Results

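The chaperones of the endoplasmic reticulum (ER) were examined for binding of HSFA1d, a class A1 heat shock factor of Arabidopsis thaliana. The set holds 10 genes of 27444 nuclear protein-coding genes: the HSP70-type chaperones BIP1, BIP2 and BIP3, the HSP110-like HSP70-17, the calnexins CNX1 and CNX2, the calreticulins CRT1, CRT2 and CRT3 and the disulfide isomerase PDIL1-1. They were chosen by gene identity, with earlier results of these data known. A gene was counted as having a peak where a deposited peak list named it or its promoter in at least 1 row. Of the 13643 rows in the 6 lists, 4 named one of these genes.

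All plants were whole seedlings, 2 weeks old, with a background that mixes the ecotypes Columbia-0 and Wassilewskija, grown at 22 °C in constant light, and all carried pHSFA1d::HSFA1d-GFP, which is HSFA1d fused to GFP and driven by the HSFA1d promoter. Chromatin was precipitated with an antibody against GFP and sequenced as single reads of 50 bases, with input chromatin as control. The heat series held untreated seedlings (HT0) and seedlings after 30 min at 37 °C (HS), with 3 ChIP and 3 input samples each, and the wounding series held untreated seedlings (WT0) and seedlings cut with a razor blade and left for 10 min (W10min), for 3 h (W3h) or for 24 h (W24h), with 1 ChIP and 1 input sample each. Reads were concatenated within a condition, so each condition has 1 peak list, no value has a spread between replicates, and no test between conditions was possible. The labels give at least 10 M mapped reads per library, and depth is otherwise unknown. The list lengths were 2103 peaks for HS and 1336 for HT0, and in the wounding series 1483 for WT0, 1445 for W10min, 626 for W3h and 509 for W24h. Whole seedlings mix all organs and cell types, and a peak list of a tagged factor holds no marker with which to check the tissue.

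Proteins that enter the secretory pathway fold inside the ER. BiP, the HSP70 of the ER, binds their unfolded chains with the help of J proteins, calnexin and calreticulin hold glycoproteins through their sugars, and disulfide isomerases set their disulfide bonds. When unfolded proteins build up there, the unfolded protein response (UPR) induces these genes through membrane-bound bZIP and NAC transcription factors and the RNA-splicing sensor IRE1, whereas the heat shock factors are best known for the chaperones of the cytosol.

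Of the 10 ER chaperone genes, 4 had a listed HSFA1d peak, against 16.8% of all coding genes, and 3 of these 4 peaks had a q above 0.05. The remaining 6 had no peak in any list (BIP1, BIP3, HSP70-17, CNX1, CNX2 and PDIL1-1), and 83.2% of all coding genes likewise had none. Each of the 4 had a single peak in a single list: CRT3 and BIP2 in HS, CRT2 in WT0 and CRT1 in W10min. No ER chaperone gene had a peak in HT0, W3h or W24h. Of the 4 peaks, 0 met a peak of any other list by at least 1 bp, so no site at these genes was listed at more than 1 condition. Since no gene of the set had a peak in 2 lists, no gene of similar pattern was sought.

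**Figure D1:**
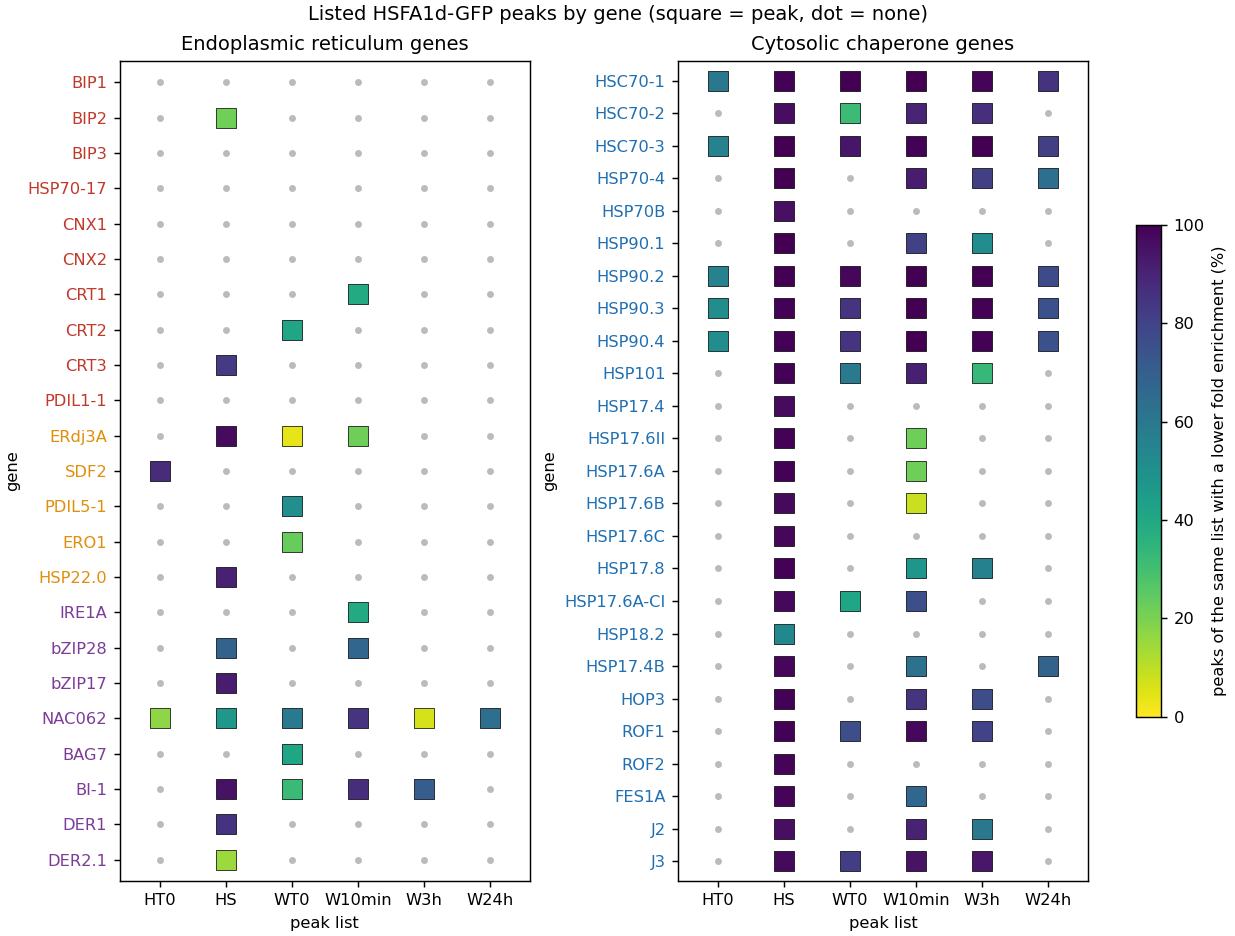
Listed peaks by gene (vertical axis) and peak list (horizontal axis). A square is a peak, coloured by the percentage of peaks of the same list with a lower fold enrichment, and a grey dot is no listed peak. Red names are the 10 ER chaperones, orange names the 5 other ER folding genes with a peak, violet names the 8 UPR and ERAD genes with a peak and blue names the 25 cytosolic chaperones. The ER chaperone rows hold 4 squares in all, and the cytosolic panel has a square in HS for all 25 genes.

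The lectin chaperones held 3 of the 4 peaks. CRT3 (AT1G08450) encodes the calreticulin known for quality control of plant receptor kinases, and its promoter carried the strongest peak of the set, in HS, at chr1:2673696-2673953 (TAIR10, gene on the minus strand). Its fold enrichment was 2.31, a value that the authors give per peak and that can be ranked only within a list, and its q was 2.23e-05. The peak was 258 bp wide and its fold was above that of 82.6% of HS peaks, with 349 peaks higher. The same peak lay within the gene body of HDA08 (AT1G08460), a histone deacetylase, and in a promoter annotated to YAB2 (AT1G08465), and the files do not say which of the 3 genes it belongs to. No CRT3 peak was listed in HT0, WT0, W10min, W3h or W24h.

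CRT1 and CRT2, named CRT1a and CRT1b by RefSeq, are the closely related general calreticulins that buffer calcium and hold glycoproteins. CRT1 (AT1G56340) had a promoter peak in W10min at chr1:21092696-21092904, enriched 1.89-fold at q = 0.0674. It was shared with the promoter of AT1G56350, and 774 of the 1445 W10min peaks had a higher fold. CRT2 (AT1G09210) had a promoter peak in WT0 at chr1:2977020-2977190, enriched 1.82-fold at q = 0.0919 and shared with no other gene. Its fold was below that of 741 of the 1483 WT0 peaks. These calreticulin peaks thus stood on opposite sides of wounding, CRT1 listed after 10 min and CRT2 listed in the untreated seedlings, and neither reached a q of 0.05. The calnexins CNX1 (AT5G61790) and CNX2 (AT5G07340), the membrane-bound relatives of calreticulin, had no peak in any of the 6 lists.

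Among the HSP70-type genes, only BIP2 (AT5G42020) was listed. Its HS peak lay within the gene, not the promoter, at chr5:16807994-16808100, and was 107 bp wide and enriched 1.57-fold at q = 0.599. The fold was above that of 21.8% of HS peaks, with 1544 peaks higher. BIP1 (AT5G28540), its near-identical copy, BIP3 (AT1G09080), the BiP gene known for strong induction under ER stress, and HSP70-17 (AT4G16660) had none. Short reads from BIP1 and BIP2 are hard to place, and how reads that map to both were counted is not given in the sources used here. The effect of that step on these genes was not tested. PDIL1-1 (AT1G21750), a disulfide isomerase, had no peak either.

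The weak peaks took values that many others of their list also took. Exactly the same fold and q were listed for 99 other HS peaks in the case of BIP2, for 104 other W10min peaks in the case of CRT1 and for 134 other WT0 peaks in the case of CRT2. The CRT3 values were shared by 16 other HS peaks.

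The counts were set beside those of all coding genes. In HS, 2 of 10 ER chaperone genes had a peak, against 7.82% of coding genes. In WT0 and in W10min the set had 1 of 10, against 7.1% of coding genes in each list. In HT0, W3h and W24h it had 0 of 10, against 3.11%, 2.55% and 1.46%. With 10 genes a single member makes 10%, so these counts cannot be read as above or below the background. The share of coding genes listed in HS and nowhere else, as CRT3 and BIP2 were, was 3.39%, and the shares listed only in WT0, as CRT2 was, and only in W10min, as CRT1 was, were 3.12% and 2.6%. At a q of at most 0.05, CRT3 in HS remained, 1 of 10 against 4.66% of coding genes. All other counts were then 0 of 10, against 4% in W10min, 3.69% in WT0, 1.42% in HT0, 1.53% in W3h and 0.802% in W24h. At a q of at most 1e-05 the count was 0 of 10 in every list, against 2.38% of coding genes in HS, 1.18% in W10min, 0.649% in WT0, 0.561% in HT0, 0.598% in W3h and 0.361% in W24h.

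Heat was compared with its time 0 to ask which genes had HSFA1d after 30 min at 37 °C. Genes listed in HS but absent from the HT0 list counted as gained. These were CRT3 and BIP2, 2 of 10 against 6.02% of coding genes. No member had a peak in HT0, so none could lose one. At a q of at most 0.05 the gain was CRT3 alone, against 3.89% of coding genes. After wounding, CRT1 was gained at 10 min, 1 of 10 against 4.23% of coding genes, while CRT2 had its peak at WT0 only. At 3 h and 24 h no member was gained, against 1.06% and 0.547% of coding genes. The 3 wounding comparisons share the WT0 list, so the CRT2 peak is counted as lost in each of them. The share of all coding genes that lost a peak was not computed, so this loss has no background beside it.

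Some genes next to the ER chaperones had peaks of their own, with the order of coding genes taken from RefSeq. ABIL4 (AT5G42030), next to BIP2, had a promoter peak in HS at chr5:16814805-16815023 of 2.11-fold (q = 0.00048), and in W10min of 2.43-fold (q = 6.77e-05). It also had weaker promoter peaks in WT0, with a q of 0.603, and in W24h, with a q of 0.0879. AT5G42010, on the other side of BIP2, had a weak W10min promoter peak of 1.69-fold (q = 0.507). None of these was annotated to BIP2. SRC2 (AT1G09070), next to BIP3, had a W10min peak within the gene of 2.3-fold (q = 0.000457). Tudor1 (AT5G07350), next to CNX2, had a W3h promoter peak of 1.9-fold (q = 0.0119). In HS, 2 of 10 ER chaperone genes had a listed neighbour, HDA08 and ABIL4, against 13.8% of all coding genes. The HDA08 peak is the CRT3 peak itself, so only the ABIL4 peak is separate. In W10min it was again 2 of 10, against 12.7%, and in HT0 0 of 10, against 5.74%. BIP1, HSP70-17, CNX1, CRT1, CRT2 and PDIL1-1 had no listed gene directly beside them in any list.

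The cytosolic response was described from 25 chaperone genes of the cytosol, a list drawn up with earlier results of these data known, so its counts are a description. In HS, 25 of 25 had a peak, where the ER set had 2 of 10, against 7.82% of coding genes. The cytosolic count was 20 at 10 min after wounding, 14 at 3 h and 7 at 24 h, with 10 in WT0 and 5 in HT0. The ER set had 1 in W10min, 1 in WT0 and 0 in W3h, W24h and HT0. Among all coding genes the shares were 7.1% in W10min, 2.55% in W3h, 1.46% in W24h, 7.1% in WT0 and 3.11% in HT0. With the 509 peaks of highest fold from every list, the cytosolic counts were 16 in W10min, 14 in W3h and 7 in W24h. They were then 24 in HS, 7 in WT0 and 0 in HT0. The W24h list holds just 509 peaks, so its count could not change. The ER set kept CRT3 in HS, 1 of 10, and had 0 of 10 in every other list. The shares of coding genes were then 2.96% in HS, 2.52% in WT0 and 1.12% in HT0. For W24h, W3h and W10min these shares were 1.46%, 2.16% and 2.62%. Of the 25 cytosolic genes, 20 had a peak in at least 2 lists, and 0 of the 10 ER genes did. Among all coding genes the share was 6.38%, near which 0 of 10 is not a result about the ER genes. At a q of at most 1e-05 the cytosolic count was 24 in HS and 12 in W10min, and the ER count was 0 in both.

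**Figure D2:**
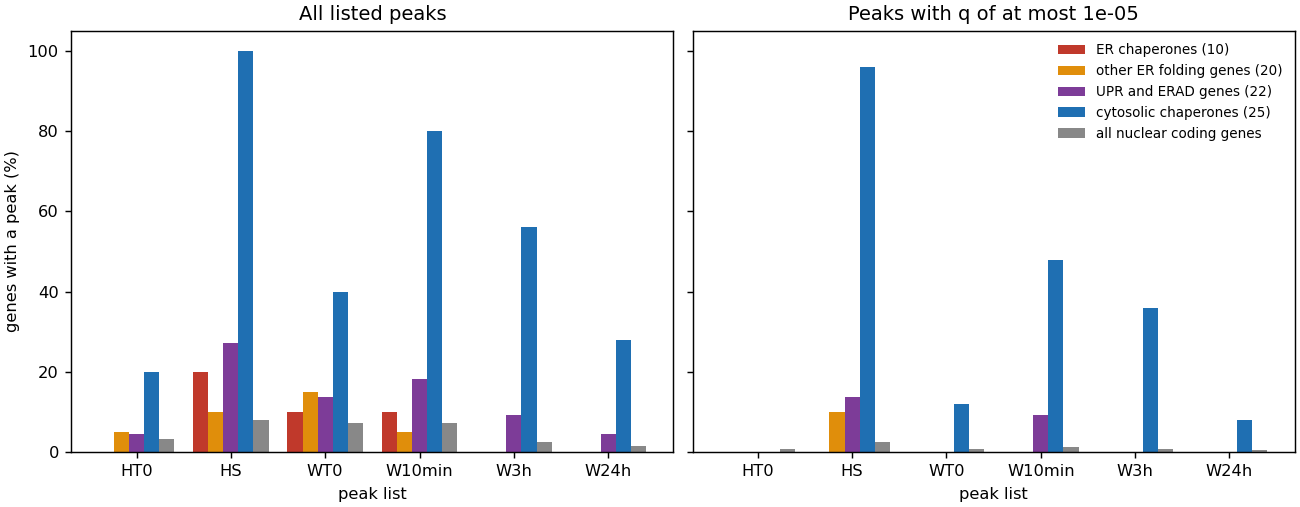
Percentage of genes with a peak (vertical axis) in each peak list (horizontal axis), for all listed peaks on the left and peaks with a q of at most 1e-05 on the right. Colours give the 4 gene lists and grey all nuclear coding genes. The ER chaperone bar reaches 20% in HS on the left, where the cytosolic bar reaches 100%, and is at 0 in every list on the right.

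Peak heights and widths were set beside the counts. Cytosolic genes with an HS peak had folds from 1.82 to 5.55, with a median of 5.16, and widths with a median of 985 bp. The ER chaperone peaks in HS stood at 1.57 and 2.31, with widths of 107 and 258 bp. Of the 25 cytosolic genes, 24 had an HS peak of higher fold than CRT3. Among the highest were HSP70-4 (AT3G12580) at 5.55-fold, a heat-induced cytosolic HSP70, HSC70-3 (AT3G09440) at 5.5-fold, a constitutive HSP70, and HSP90.2 (AT5G56030) at 5.4-fold. The exception was HSP18.2 (AT5G59720), a small heat shock protein with an HS peak of 1.82-fold and a q of 0.0315. Not all of these genes have separate peaks. HSP90.3 (AT5G56010) and HSP90.4 (AT5G56000) shared their strongest HS peak, as did HSP17.6A and HSP17.6II. Some other cytosolic peaks in HS also touched genes outside the list. In W10min the 20 cytosolic genes with a peak had folds from 1.62 to 8.3, with a median of 3.28, and HSC70-1 (AT5G02500) had the highest fold of the whole list. CRT1, at 1.89, lay within that range, above 3 cytosolic genes: HSP17.6B (AT2G29500) at 1.62-fold (q = 0.909), and HSP17.6A (AT5G12030) and HSP17.6II (AT5G12020), which share a peak of 1.76-fold (q = 0.27). The HS peaks of 23 cytosolic genes covered promoter and gene body, and the CRT3 and BIP2 peaks covered only the promoter and only the gene body.

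**Figure D3:**
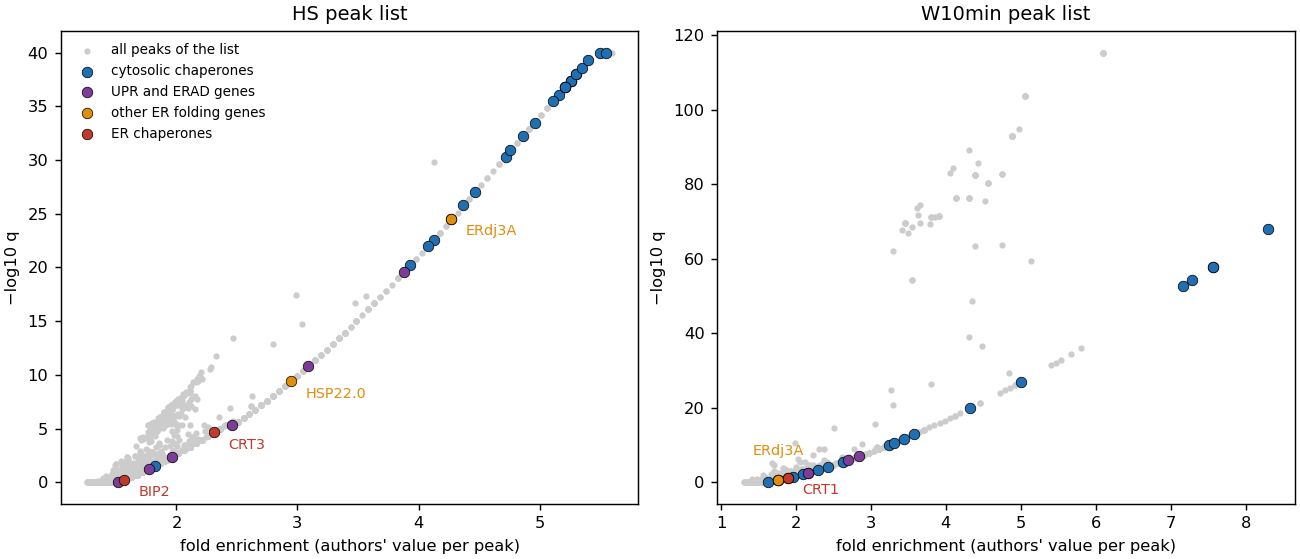
Fold enrichment (horizontal axis) against −log10 q (vertical axis) for every peak of the HS list on the left and of the W10min list on the right, in grey, with the strongest peak of each listed gene in colour. BIP2 and CRT3 in HS, at 1.57-fold and 2.31-fold, compare with cytosolic genes from 1.82-fold to 5.55-fold, so BIP2 lies below that range and CRT3 within its lower part. CRT1 in W10min, at 1.89-fold, lies within the cytosolic range of 1.62-fold to 8.3-fold.

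Families with members in both compartments were set side by side. In HS the HSP70 family had a peak at 5 of 5 listed cytosolic genes and at 1 of 4 listed ER genes, the weak BIP2 peak. HSP90 had a peak at 4 of 4 cytosolic genes and at 0 of 1 in the ER, where HSP90.7 (AT4G24190), the SHEPHERD protein, had none in any list. J2 and J3, the only cytosolic J proteins on the list, both had an HS peak, against 1 of 5 ER J proteins. Small heat shock proteins were the exception, with a peak at 9 of 9 listed cytosolic genes and at the 1 ER gene of the list. No compartment difference was tested, since genes of a family are not replicates and the lists were chosen with results known.

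**Figure D4:**
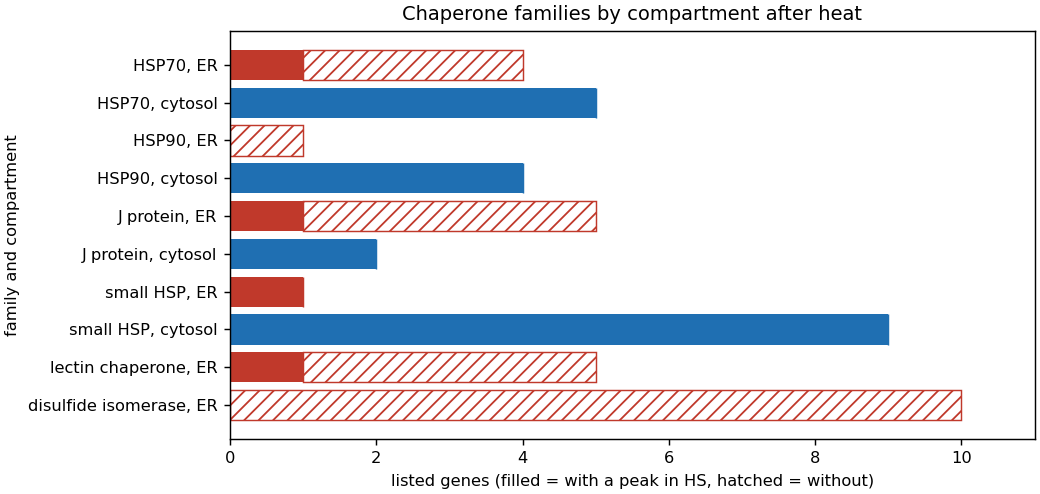
Number of listed genes (horizontal axis) per chaperone family and compartment (vertical axis), filled where the gene had a peak in HS and hatched where it had none. Blue cytosolic bars are filled throughout, and red ER bars are filled for 1 of 4 HSP70 genes, 0 of 1 HSP90 gene, 1 of 5 J proteins, 1 of 1 small heat shock protein, 1 of 5 lectin chaperones and 0 of 10 disulfide isomerases.

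Some other ER folding genes had strong peaks. Of the 20 on the list, 2 had a peak in HS, against 7.82% of coding genes, and 3 in WT0, against 7.1%. HT0 and W10min had 1 each, against 3.11% and 7.1%, and W3h and W24h had 0, against 2.55% and 1.46%. Of the 20, 15 had none in any list, against 83.2% of coding genes. Counts this small cannot be read as above or below the background. ERdj3A (AT3G08970), a J protein that assists BiP and is needed by pollen tubes in heat, had an HS peak over promoter and gene at chr3:2737036-2737839 of 4.27-fold (q = 3.28e-25), above 97% of HS peaks. Its WT0 and W10min peaks were weak, at 1.52-fold (q of 1) and 1.76-fold (q of 0.27), and both met the HS peak. HSP22.0 (AT4G10250), the small heat shock protein of the ER, had an HS peak over promoter and gene at chr4:6370000-6370692 of 2.95-fold (q = 3.95e-10), and none in any other list. SDF2 (AT2G25110), a partner of the ER J protein ERdj3B, had promoter peaks in HT0 only, the stronger at 2.09-fold with a q of 2.71e-05. PDIL5-1, a disulfide isomerase, and ERO1, which oxidises such isomerases, had WT0 peaks at 1.88-fold (q of 0.0456) and 1.7-fold (q of 0.335).

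Regulators of ER stress and of ER-associated degradation (ERAD), the disposal of misfolded ER proteins, had peaks at 8 of 22 listed genes. Among all coding genes the share with a peak was 16.8%. The HS count was 6 of 22, against 7.82% of coding genes, and 4 at a q of at most 0.05, against 4.66%. The W10min count was 4 and that of WT0 3, against 7.1% in each list. The W3h count was 2, against 2.55%, and HT0 and W24h had 1 each, against 3.11% and 1.46%. BI-1 (AT5G47120), a membrane protein of the ER that restrains stress-induced cell death, had the strongest, at chr5:19135455-19136188 in HS, of 3.88-fold (q = 2.64e-20). It was also listed in WT0 (1.76-fold, q of 0.179), W10min (2.84-fold, q of 1.19e-07) and W3h (2.09-fold, q of 0.000552), and these 4 peaks met each other, while the promoter of LIL3:2 (AT5G47110) shared them. The promoter of bZIP17 (AT2G40950), a membrane-bound UPR and salt stress factor, had an HS peak of 3.09-fold with a q of 1.42e-11 and none elsewhere. DER1 (AT4G29330), a derlin of the ERAD machinery, had an HS peak of 2.46-fold with a q of 4.54e-06. Like those of ERdj3A and HSP22.0, the HS peaks of BI-1, bZIP17 and DER1 also touched the promoter of at least 1 other gene.

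Other UPR factors had weaker peaks. The HS peak of bZIP28 (AT3G10800), the heat-responsive membrane-bound activator of BiP genes, stood at 1.96-fold (q = 0.00417), and it met a W10min peak of 2.16-fold with a q of 0.00274. NAC062 (AT3G49530), a membrane-tethered NAC factor, was listed in all 6 conditions, with a q above 0.05 in HT0, HS and W3h. Its fold, which ranks peaks only within a list, was 1.77 in HS (q of 0.0597) and 1.46 in the untreated HT0. Those HS and HT0 peaks did not meet. In the wounding series its fold was 1.94 in WT0 (q of 0.0218), 2.7 at 10 min, 1.45 at 3 h and 2.04 at 24 h (q of 0.00897). Its lowest q was 1.09e-06, at 10 min. IRE1A (AT2G17520), an RNA-splicing sensor, had a W10min promoter peak of 1.89-fold with a q of 0.0674, the same values as the CRT1 peak. BAG7, an ER co-chaperone, had a WT0 peak of 1.82-fold with a q of 0.0919, the same values as the CRT2 peak. DER2.1 had an HS peak of 1.52-fold with a q of 0.993. bZIP60, the factor spliced by IRE1, had no peak in any list.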

How the data were processed

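The data used were 6 annotated peak lists, 1 per condition. Per the labels, fastq files were concatenated within a condition. Bowtie2, SAMtools and MACS2 are named, with no version, and TAIR10 is the build, per the submitters' processing notes. The authors deposited 2 values per peak, per the file headers: a fold enrichment, which is a ratio, and a −log10 q, from which q was computed. Whether a q threshold was used is not given in the sources used here. Promoter rows are up to 3001 bp wide, and stretches of peaks between annotated features have no row.

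A start of 1 was added, since gene rows then began at RefSeq gene starts (97 rows against 5 in HS). Overlapping rows of equal fold and q, or rows with a gap of up to 1 base, were merged to 1 peak. The step was tested on simulated peaks that lay far apart and had rows along their whole length. Wrong merging of close peaks with equal values, and splitting of peaks at stretches with no row, were therefore not tested. Gene names and the coding genes come from RefSeq assembly TAIR10.1, used for names and gene order only. For HSP70-17, CNX2, HSC70-3 and some others RefSeq gives no symbol, and common names are used. The members and the 3 comparison lists were chosen with earlier results of these data known. Genes were named by a rule: all members and genes sharing their peaks, listed genes of the other ER lists, and the cytosolic genes of highest fold. Counts were set beside the percentage of all coding genes, with no test. Neighbours are given in addition to that rule, as are HSP90.7, bZIP60, HSP18.2, HSP17.6B, HSP17.6II, J2 and J3, chosen after their values were seen. Alternatives were a q of at most 0.05 or 1e-05, equal numbers of peaks, promoter rows only and other definitions of gain. No sequence is printed, since no genome was used here. Python 3.11.15, pandas 2.3.3, numpy 2.4.6 and matplotlib 3.10.9 were used.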

Additional observations from a re-analysis of the deposited data

How the results depend on the processing

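Of 120 values recomputed under alternatives for 28 counts, 76 stayed within 1.5 times the reported count and 44 did not. Some of the 76 were fixed in advance, since a gene with no listed peak acquires none when peaks are removed. ER chaperone genes with a peak in HS numbered 1 at a q of at most 0.05 and 0 at a q of at most 1e-05. They numbered 1 with 509 peaks of highest fold from every list, against 2.96% of coding genes. In promoter rows only they numbered 1, against 6.78%. The same member counts hold for members gained in HS. In WT0 and W10min, and for members gained in W10min, the number was 0 at either q and with equal numbers of peaks. With equal numbers, the shares of coding genes with a peak were 2.52% in WT0 and 2.62% in W10min. Counts of 0 in HT0, W3h and W24h were 0 throughout, as they had to be. Using both time 0 lists as control, or asking that the treated peak meet no time 0 peak, changed no count of gained members. Neither could have done so, since no member had a peak in 2 lists and no member peak met a peak of another list. Cytosolic chaperones in HT0 numbered 3 at a q of at most 0.05 and 0 at 1e-05 and with equal numbers. At 1e-05 they numbered 12 in W10min, 9 in W3h, 2 in W24h and 3 in WT0. Other ER folding genes numbered 0 in HT0, WT0 and W10min at 1e-05, 1 in WT0 and 0 in W10min at 0.05, and 0 in WT0 and W10min with equal numbers. UPR and ERAD genes numbered 3 in HS at 1e-05 and with equal numbers, 2 in W10min at 1e-05, and 0 in HT0, WT0, W3h and W24h at 1e-05. They numbered 0 in HT0, 1 in WT0 and 1 in W3h at 0.05, and 0 in HT0, 0 in WT0 and 1 in W3h with equal numbers. The q thresholds and equal numbers remove weak peaks by construction, and promoter rows only removes peaks within genes, such as that of BIP2. No paired analysis was possible because each condition has 1 peak list from concatenated reads, and for the same reason no replicate could be left out. Depth per library is unknown, so a gene with no listed peak is not shown to be unbound.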
